A study of Mus musculus with 18 samples.

Results

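The genes described here are 32 integrin and focal adhesion genes, found by symbol among the 35667 genes of the count table, and all 32 were present. They comprise 11 integrin alpha chains, 6 integrin beta chains and 15 cytoplasmic adaptors. Expression was measured by bulk RNA sequencing of Smart-seq2 libraries from mouse hepatic stellate cells (HSC), liver pericytes that store retinoids, and from intrahepatic cholangiocyte organoids (ICO), epithelial organoids grown from bile duct cells. The 18 libraries form 6 groups of 3. HSC came from healthy wild-type mice and were taken at day 0, directly after isolation without treatment, or at day 7 on plastic, alone in Matrigel (a laminin-rich basement membrane gel), or in Matrigel with ICO. ICO carried a dTomato tag and were taken at day 7 from Matrigel alone or from the co-culture. The series' text says that the cells cultured in Matrigel were sorted at day 7. The growth medium, a mixture of serum-containing DMEM and a B27- and N2-supplemented medium with N-acetylcysteine, nicotinamide, gastrin, EGF, FGF10, HGF and RSPO3, is labelled for all groups. Mouse strain, sex and age, organoid lines and sort gates were not stated. No label says whether replicate libraries are separate animals or cultures, so the p-values measure the spread between these libraries, which may be technical.

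Integrins are heterodimers of an alpha and a beta chain that span the plasma membrane and bind extracellular matrix. Talins and kindlins bind the beta chain tail and switch the receptor to its active state, and the complex of ILK, PINCH (encoded by Lims1 and Lims2) and parvin links it to actin. Vinculin, zyxin and tensins reinforce that link under tension, and focal adhesion kinase, paxillin and p130Cas carry signals from it. When stellate cells become activated in injured liver or on stiff plastic, they spread, form focal adhesions and secrete the collagens and fibronectin that these receptors bind.

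Promoter sequences are shown for some of the genes whose levels fell together from plastic to Matrigel, as described below. Motifs were searched because serum response factor (through the CArG box), TEAD factors (through GGAATG) and AP-1 (through TGANTCA) are known regulators of cytoskeletal genes. RefSeq windows of 250 bases before to 50 bases after a transcript start (GRCm38.p6) matched 23 of the 32 genes, with 29 windows, and both strands were searched. A CArG box, the serum response element core, lay in 1.63% of 32851 windows of this length and in those of Fermt2, Itgb6 and Vcl. GGAATG lay in 14.7% of windows, among them Itgb1 and Vcl, and TGANTCA in 7.81%, among them Itga3, Itga9 and Zyx. The 3 motifs do not share bases in the windows printed. The 250 bases before the start are given 5′ to 3′ on the gene's strand, with the motifs in capitals. Vcl (chr14:20929148-20929397, plus strand) has the CArG box 227 to 218 and GGAATG 143 to 138 bases before its start. Fermt2 (chr14:45530066-45530315, minus strand) has its CArG box at 204 to 195, Zyx (chr6:42349578-42349827, plus strand) TGANTCA at 121 to 115, and Itgb1 (chr8:128685404-128685653, plus strand) GGAATG at 7 to 2. Itga5 (chr15:103366792-103367041, minus strand) holds none of these motifs and is shown because its transcript differed most between HSC cultures with and without ICO. The bases after this Itga5 start were not found in the Itga5 transcripts of GENCODE M21, unlike those of Vcl, Fermt2, Zyx and Itgb1. Its start is thus less certain.
Vcl: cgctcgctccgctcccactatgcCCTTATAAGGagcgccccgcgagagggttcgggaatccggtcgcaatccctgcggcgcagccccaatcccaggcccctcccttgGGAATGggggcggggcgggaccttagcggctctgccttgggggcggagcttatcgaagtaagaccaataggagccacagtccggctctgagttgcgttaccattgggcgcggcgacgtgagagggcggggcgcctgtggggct
Fermt2: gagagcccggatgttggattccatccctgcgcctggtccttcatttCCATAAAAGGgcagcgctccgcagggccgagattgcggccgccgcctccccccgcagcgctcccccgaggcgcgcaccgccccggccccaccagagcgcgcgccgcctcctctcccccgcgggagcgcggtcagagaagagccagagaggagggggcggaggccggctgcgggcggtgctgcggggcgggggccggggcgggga
Zyx: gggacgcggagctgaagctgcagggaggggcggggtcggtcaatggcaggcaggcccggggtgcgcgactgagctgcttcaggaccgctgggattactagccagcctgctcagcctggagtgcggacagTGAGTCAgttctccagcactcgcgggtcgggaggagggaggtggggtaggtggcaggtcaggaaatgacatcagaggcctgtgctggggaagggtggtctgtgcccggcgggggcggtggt
Itgb1: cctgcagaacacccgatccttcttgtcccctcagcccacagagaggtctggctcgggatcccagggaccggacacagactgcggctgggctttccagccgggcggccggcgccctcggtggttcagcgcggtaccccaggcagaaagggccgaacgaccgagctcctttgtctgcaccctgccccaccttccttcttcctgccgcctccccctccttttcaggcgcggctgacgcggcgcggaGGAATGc
Itga5: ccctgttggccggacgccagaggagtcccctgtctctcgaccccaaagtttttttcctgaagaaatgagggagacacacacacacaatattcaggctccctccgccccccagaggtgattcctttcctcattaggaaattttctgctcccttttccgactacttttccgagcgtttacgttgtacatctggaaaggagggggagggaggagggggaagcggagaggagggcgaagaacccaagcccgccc
A match describes letters and not factor binding, and binding was not analysed here.

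Libraries held between 6907479 counts (HSC in co-culture, replicate 1) and 22158674 counts (plastic, replicate 2), with 19100 to 22528 genes detected. The summed level of 10 stellate markers was 77837 to 91665 CPM (counts scaled to library size with TMM factors) at day 0, 6153 to 10627 CPM on plastic, 24576 to 45892 CPM in HSC alone in Matrigel, 5133 to 8207 CPM in co-cultured HSC and at most 340.5 CPM in ICO. Day 0 libraries also held 17234 to 18061 CPM of 10 hepatocyte markers, against at most 169.7 CPM in later HSC libraries, and 1274 to 1318 CPM of 10 endothelial markers, against at most 37.9 CPM. The summed level of 12 macrophage markers was 785.9 to 831.7 CPM at day 0, 121.6 to 520.9 CPM on plastic, 2560 to 3317 CPM in HSC alone in Matrigel and 264.8 to 399.5 CPM in co-culture. An organoid share was computed as the median, over 14 cholangiocyte markers, of the level in an HSC library divided by the mean ICO level of the same culture. It was 31.5%, 13.4% and 3.07% in HSC alone in Matrigel, 28.8%, 15.6% and 42.6% in co-cultured HSC, and at most 0.259% at day 0 or on plastic. The HSC libraries from Matrigel thus held transcripts of organoid markers in unequal amounts, also where the label names no organoids in the culture. Results that rest on them were recomputed after the share times the ICO level of each gene was subtracted. In bulk RNA, a change in the number of cells of a type cannot be told apart from a change in RNA per cell.

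The summed level of the 32 genes differed between groups. It was 7932 to 8051 CPM at day 0, 8978 to 9299 CPM on plastic, 3770.2 to 4209 CPM in HSC alone in Matrigel, 3655 to 4426 CPM in co-cultured HSC and 2420.2 to 2709 CPM in ICO. HSC in both Matrigel cultures thus had a lower sum than HSC on plastic or at day 0, without overlap between libraries. The HSC libraries from Matrigel also came from sorted cells and held organoid transcripts, and the part of either in the sum was not tested. Per kilobase of transcript, Itgb1, the common beta chain of most matrix receptors, had the highest level in all 6 groups, with 759 ± 43.0 CPM per kb on plastic and 171 ± 12.7 CPM per kb in HSC alone in Matrigel (mean ± SD, n = 3). Ilk, the scaffold kinase of the ILK complex, came second in every group except day 0, where Fermt2 did. Itga3, a laminin receptor chain, was the third in both ICO groups and Itga5, the fibronectin receptor chain, the third in co-cultured HSC.

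Plastic was compared with day 0 to see how the adhesion genes differed between cultured and freshly isolated HSC. The stiff surface, the time in culture and exposure to the growth medium cannot be told apart in this comparison. Changes are fitted log2 fold changes ± standard error (SE), tested with edgeR's quasi-likelihood test and called at a Benjamini-Hochberg adjusted p under 0.05, and levels are listed in the order of replicates 1 to 3. All 32 genes passed the low-count filter in HSC, and of them 12 were higher on plastic and 6 lower, against 27.5% and 30.5% of all 17006 genes tested, and the median log2 fold change of the members was 0.18 against -0.10 for all genes. The matrix receptors changed in opposite directions. Itga5, whose product pairs with the beta1 chain as the main fibronectin receptor, had 36.4, 36.3 and 49.6 CPM at day 0 and 368, 353 and 431 CPM on plastic (log2 fold change 3.30 ± 0.24, adjusted p = 1.14e-07). Itga4, the chain of receptors for fibronectin and VCAM-1, had 2.67, 1.91 and 3.02 CPM at day 0 and 62.9, 65.1 and 72.6 CPM on plastic, 26.4 times as much (log2 fold change 4.78 ± 0.20, adjusted p = 1.21e-09). In both genes every plastic library lay above every day 0 library. Itga8, the alpha chain of the nephronectin receptor, had 418, 438 and 435 CPM at day 0 and 42.6, 35.6 and 25.8 CPM on plastic (log2 fold change -3.57 ± 0.25, adjusted p = 8.99e-08). Itga1, a collagen receptor chain, had 1201, 1173 and 1207 CPM at day 0 and 520.1, 504 and 396 CPM on plastic (log2 fold change -1.27 ± 0.18, adjusted p = 3.81e-05). Both thus fell without overlap, as did the beta chains Itgb8, with a log2 fold change of -3.88 ± 0.58 (adjusted p = 6.05e-05), and Itgb3, with -0.84 ± 0.17 (adjusted p = 0.000706). Itgb1 had 1741, 1744 and 1674 CPM at day 0 and 2904, 2727 and 3054 CPM on plastic (log2 fold change 0.82 ± 0.14, adjusted p = 0.000258), and Itgb5 also rose, by 0.70 ± 0.18 (adjusted p = 0.00372) on the log2 scale.

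Among the adaptors, Lims2, which encodes the PINCH-2 subunit of the ILK complex, had 22.5, 26.1 and 20.9 CPM at day 0 and 191, 193 and 201 CPM on plastic (log2 fold change 3.14 ± 0.44, adjusted p = 0.000125). Bcar1, which encodes p130Cas, a scaffold phosphorylated when cells are stretched, had 77.4, 87.5 and 64.0 and 307, 324 and 419 CPM (log2 fold change 2.26 ± 0.19, adjusted p = 3.69e-07). Ptk2, which encodes focal adhesion kinase, had 65.8, 70.7 and 76.9 and 183, 167 and 206 CPM (log2 fold change 1.44 ± 0.14, adjusted p = 1.05e-06). The plastic libraries were the higher ones in all 3 genes, and Ilk, Zyx and Vcl rose less, with log2 fold changes of 1.01, 0.66 and 0.39. Tln2, the second talin gene, fell from 192, 193 and 169.8 CPM to 30.3, 30.0 and 25.5 CPM (log2 fold change -2.63 ± 0.19, adjusted p = 7.65e-08), while Tln1, the widely expressed talin, had 414, 399 and 382 CPM and 334, 348 and 396 CPM (log2 fold change -0.09 ± 0.11, adjusted p = 0.528). Tns3, a tensin, fell by 0.54 on the log2 scale, a call that was lost with library totals as scaling (adjusted p = 0.0676). Itga2 and Itga3 also rose, but from low levels, Itga2 reaching 4.82, 2.26 and 3.13 CPM on plastic. The call of Itga3 did not hold without day 0 replicates 1 or 3 or plastic replicates 2 or 3 (adjusted p between 0.0769 and 0.112). With library totals as scaling, the median of all genes moved to 0.16, the members' counts to 16 higher and 5 lower, and those of all genes from 4678 higher and 5190 lower to 5908 and 4102. The marker sums of other cell types given above fell with the same comparison, with all 10 hepatocyte, all 10 endothelial and 8 of 12 macrophage markers called lower. So did 8 of the 10 stellate markers, and the part of these lists in the members' changes was not tested.

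HSC alone in Matrigel were then set against day 0 and plastic. The Matrigel cells were sorted and their libraries held organoid transcripts, so the substrate, the sort and organoid RNA cannot be told apart as groups. Against day 0, the 7 days of culture cannot be told apart from these either. All 10 hepatocyte and all 10 endothelial markers were also called lower than at day 0, and their part was not tested. The macrophage and stellate marker sums given above were also higher in Matrigel than on plastic, with 9 of 12 macrophage and 7 of 10 stellate markers called higher, and their part was not tested. Against day 0, 8 of 32 genes were higher and 15 lower (19.3% and 21.5% of all genes), with a median of -0.58 against 0.09. Against plastic, 9 were higher and 16 lower (29.9% and 25.2% of all genes), with a median of -0.40 against 0.14. Itga5, the fibronectin receptor chain, had 38.3, 23.2 and 36.3 CPM in Matrigel, so that the libraries overlapped with day 0 (log2 fold change -0.32 ± 0.22, adjusted p = 0.269) and lay below those on plastic (log2 fold change -3.62 ± 0.24, adjusted p = 1.90e-07). Itga4 was at 4.01, 4.75 and 4.20 CPM in Matrigel (log2 fold change -4.01 ± 0.19, adjusted p = 1.96e-08 against plastic). Itgb1 had 677, 598 and 685 CPM, below all day 0 libraries (log2 fold change -1.39 ± 0.15, adjusted p = 6.28e-06) and below all plastic libraries (log2 fold change -2.21 ± 0.15, adjusted p = 1.78e-07). Itga5, Itga4 and Itgb1 thus stood lower in Matrigel than on plastic, and of these Itgb1 was also called lower than at day 0, while Itga4 was slightly higher (log2 fold change 0.78 ± 0.20, adjusted p = 0.00652), a call lost in a fit of only these 2 groups (adjusted p = 0.0848). Itga9, which binds tenascin and osteopontin as alpha9beta1, had 188, 193 and 169 CPM at day 0, 139.6, 153 and 103 CPM on plastic and 38.5, 49.0 and 52.4 CPM in Matrigel (log2 fold change -1.56 ± 0.18, adjusted p = 1.46e-05 against plastic). Itgav, shared by the receptors that release active TGF-beta, varied little, between 99.9 and 151 CPM over all HSC libraries. Itga1 had 316, 443 and 410.2 CPM in Matrigel, below the day 0 libraries (log2 fold change -1.61 ± 0.18, adjusted p = 1.20e-05) but not separable from plastic (log2 fold change -0.34 ± 0.18, adjusted p = 0.120). Among the beta chains, Itgb5 exceeded its day 0 level (log2 fold change 0.66 ± 0.18, adjusted p = 0.00895), whereas Itgb3 was below its own (log2 fold change -0.69 ± 0.17, adjusted p = 0.00492). For Itgav, the fall from plastic to Matrigel had a log2 value of -0.47 ± 0.12 (adjusted p = 0.00615), and the call was lost with library totals (adjusted p = 0.293).

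Of the 15 adaptors, 10 were called lower in Matrigel than both at day 0 and on plastic, against 7.18% of all genes tested. With library totals as scaling, 6 adaptors and 2.33% of all genes were. Vcl, encoding vinculin, had 309.9, 312 and 313 CPM at day 0, 383, 414 and 377 CPM on plastic and 118, 92.2 and 105 CPM in Matrigel (log2 fold change -1.95 ± 0.11, adjusted p = 6.58e-08 against plastic). Fermt2, encoding kindlin-2, had 697, 744 and 728, 861, 836 and 864 and 235, 280.4 and 346 CPM in the same groups (log2 fold change -1.63 ± 0.15, adjusted p = 2.07e-06). Zyx, encoding the stretch-responsive protein zyxin, had 157, 127 and 140.2, 188, 233 and 218 and 69.8, 81.2 and 86.6 CPM (log2 fold change -1.48 ± 0.17, adjusted p = 9.17e-06). The Matrigel libraries were the lowest in each of these 3 genes, without overlap. The ILK complex moved as a group, with log2 fold changes against plastic of -1.62 for Ilk, -1.34 for Parva (alpha-parvin), -1.33 for Lims1 (PINCH-1) and -6.63 for Lims2, all called. Lims2 had 4.55, 1.39 and 0.392 CPM in Matrigel (log2 fold change -6.63 ± 0.55, adjusted p = 4.35e-06). Bcar1 fell by 2.62 and Ptk2 by 2.04 on the log2 scale, whereas Pxn, encoding paxillin, had 26.7, 29.1 and 37.4 CPM on plastic and 49.2, 46.0 and 40.8 CPM in Matrigel (log2 fold change 0.49 ± 0.20, adjusted p = 0.0539). The 4 motif-bearing promoters printed above were chosen because their genes fell here and held a motif, so the motifs say nothing about the fall. Itga4, Itga5, Itgav, Tln1, Ilk, Lims1, Bcar1 and Tns3 were also called lower than on plastic, and their windows held none of the 3 motifs. Of the other genes with a motif, Itga9 was lower in Matrigel than on plastic, Itga3 did not pass the threshold (log2 fold change 1.05 ± 0.46, adjusted p = 0.0787) and Itgb6 was called higher, a call lost with the organoid share subtracted (adjusted p = 0.732). Tns3 was at 172, 220.3 and 199.8 CPM in Matrigel, lower than on plastic (log2 fold change -0.53 ± 0.13, adjusted p = 0.00319), which was lost with library totals (adjusted p = 0.137).

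Other genes went the opposite way. Tln2 had 104, 163 and 141 CPM in Matrigel (log2 fold change 2.19 ± 0.18, adjusted p = 8.11e-07 against plastic), next to its day 0 level (log2 fold change -0.43 ± 0.17, adjusted p = 0.0610). Itga8 had 95.7, 138 and 123 CPM in Matrigel, between plastic (log2 fold change 1.72 ± 0.23, adjusted p = 4.89e-05) and day 0 (log2 fold change -1.85 ± 0.23, adjusted p = 3.67e-05). Itgb8, encoding the chain of a TGF-beta-activating integrin, had 1.06, 0.576 and 0.0601 CPM on plastic and 5.68, 5.41 and 5.71 CPM in Matrigel (log2 fold change 3.25 ± 0.57, adjusted p = 0.000354). Tln2, Itga8 and Itgb8 thus had higher levels in Matrigel than on plastic, without overlap, as had the stellate marker sum. Tns1, a tensin of fibrillar adhesions, had 358, 513 and 342 CPM on plastic and 473, 787 and 639 CPM in Matrigel (log2 fold change 0.59 ± 0.21, adjusted p = 0.0266), but the groups overlapped and the call was lost without plastic replicates 1 or 3 or Matrigel replicates 2 or 3 (adjusted p between 0.0664 and 0.136). With library totals as scaling, the median of all genes against day 0 moved from 0.09 to 0.68, all genes went from 3282 higher and 3663 lower to 8601 and 1935, and the members to 10 higher and 11 lower. The day 0 contrasts of Itgb3, Zyx, Ilk and Ptk2 then missed the threshold (adjusted p between 0.172 and 0.974). Against plastic that median moved from 0.14 to 0.45, all genes from 5077 higher and 4281 lower to 6777 and 2871, and the members to 12 higher and 14 lower. No member called in these comparisons changed sign under TMM, RLE or library-total scaling.

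**Figure D1:**
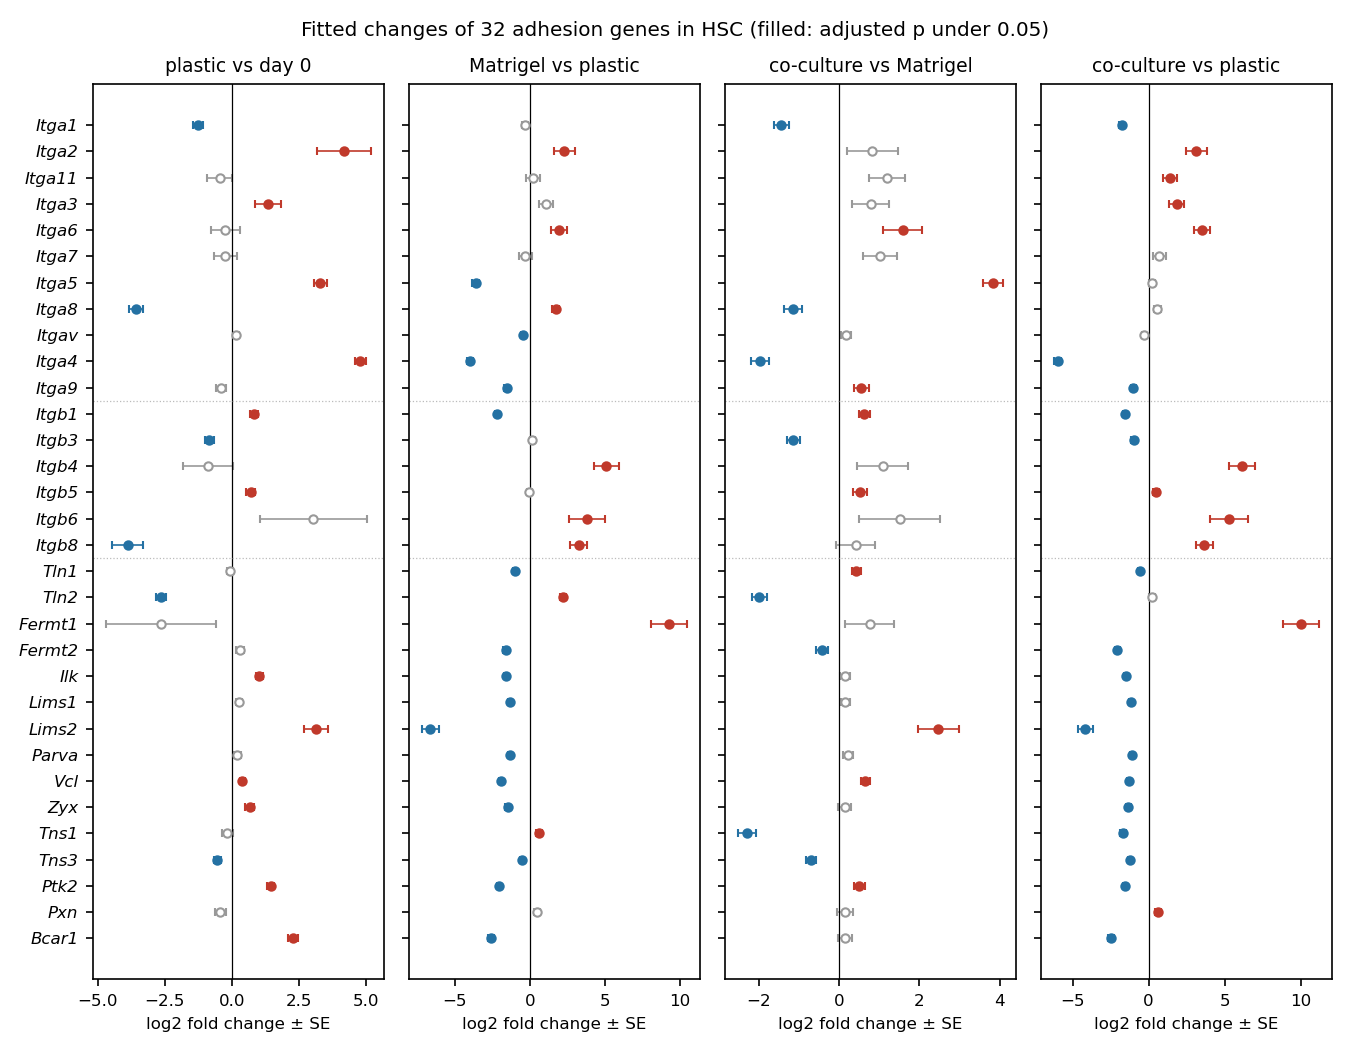
Fitted log2 fold changes (x axis, bars ± SE) of the 32 genes (y axis, ordered alpha chains, beta chains, adaptors, separated by dotted lines) in 4 comparisons of HSC groups, with filled points for adjusted p under 0.05, red for higher and blue for lower. Most adaptors lie left of 0 for Matrigel against plastic, where 16 of 32 genes were lower, and Itga5 lies farthest right for co-culture against Matrigel (3.83).

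Co-cultured HSC were compared with HSC alone in Matrigel to see what changed when organoids shared the gel. Of the 32 genes, Itga5 showed the largest rise. It had 38.3, 23.2 and 36.3 CPM alone and 381, 602 and 367 CPM in co-culture, 13.8 times as much (log2 fold change 3.83 ± 0.24, adjusted p = 1.89e-07), with no overlap. The co-culture level was not separable from that on plastic (log2 fold change 0.22 ± 0.22, adjusted p = 0.446), and with the organoid share subtracted it was above it (0.72, adjusted p = 0.0203). ICO themselves had 8.80 to 14.6 CPM of Itga5 in any library, so the order of group means was co-cultured HSC and plastic, then day 0 and HSC alone in Matrigel, then both ICO groups. Within the first pair, the second pair and the third pair the groups did not differ beyond their spread. In all, 9 of 32 genes were higher in co-culture and 8 lower, against 17.3% and 13.8% of all genes, with a median of 0.42 against 0.03. The macrophage and stellate marker sums were lower in co-culture, with 9 of 12 and 7 of 10 markers called lower, and their part was not tested. The organoid share differed between libraries, as given above.

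**Figure D2:**
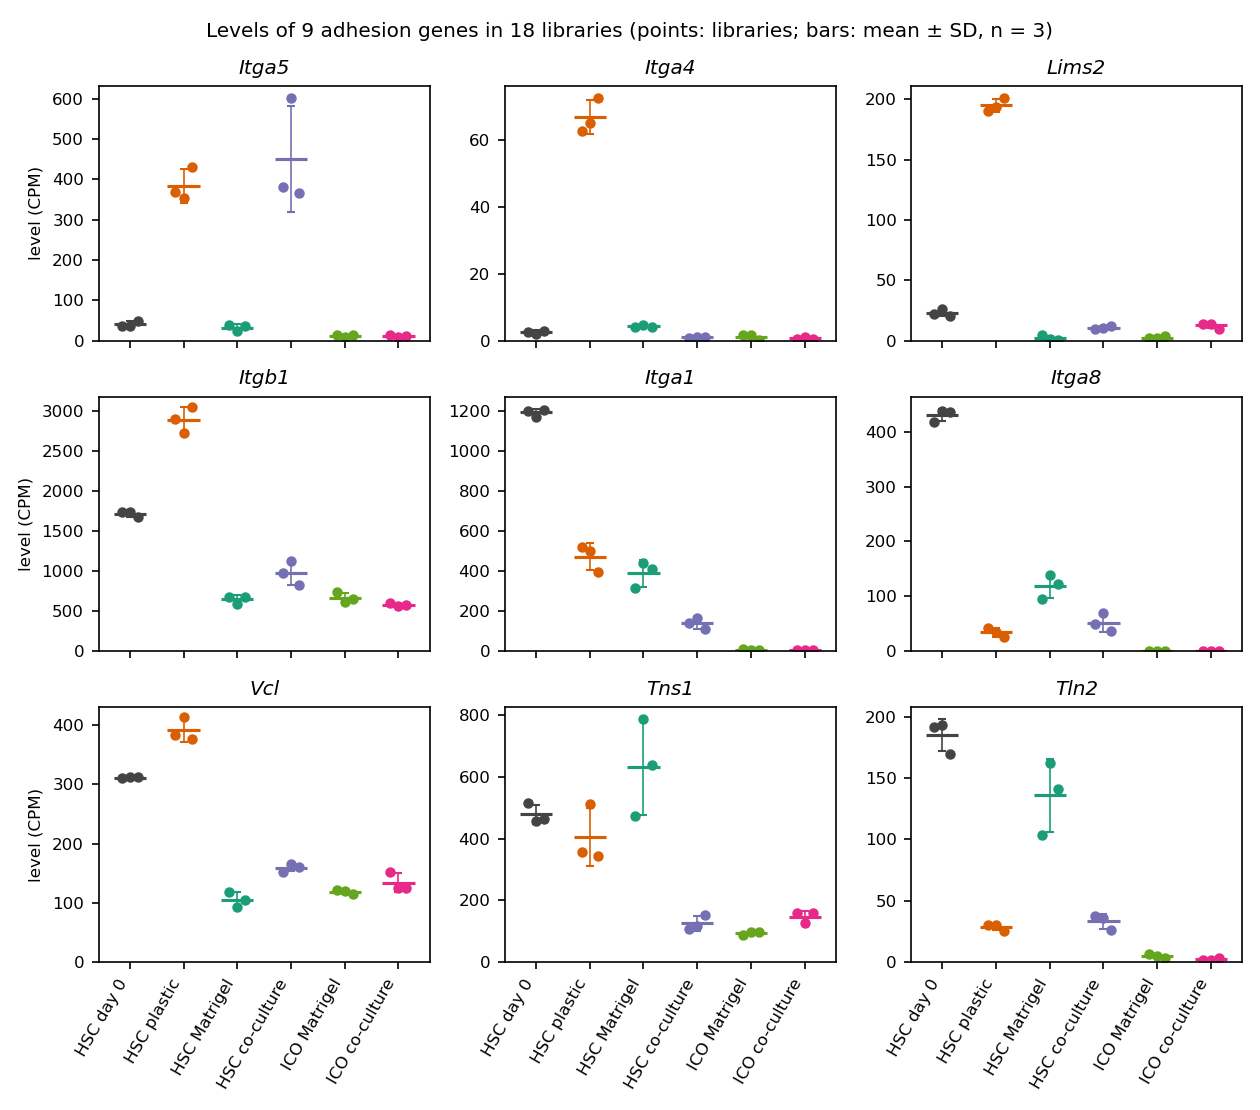
Levels in CPM (y axes, from 0) of 9 of the genes in the 6 groups (x axis), with a point per library and the mean ± SD (n = 3). Itga5 is high on plastic and in co-cultured HSC, Itga4 and Lims2 on plastic, whereas Tns1 and Tln2 are lower in co-cultured HSC than in HSC alone in Matrigel.

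Besides Itga5, Vcl rose from 118, 92.2 and 105 CPM to 153, 165 and 160.2 CPM (log2 fold change 0.65 ± 0.11, adjusted p = 0.000591) and Lims2 from 4.55, 1.39 and 0.392 CPM to 9.48, 10.9 and 12.5 CPM (log2 fold change 2.47 ± 0.51, adjusted p = 0.00432), each without overlap. Itgb1, the partner of the alpha5 chain, had 977, 1132 and 828 CPM in co-culture (log2 fold change 0.63 ± 0.14, adjusted p = 0.00460), again above all Matrigel libraries. When only the 6 libraries compared were fitted, Itga5, Vcl and Lims2 remained among the higher genes, and the call of Itgb1 was lost (adjusted p = 0.0672). The other higher genes were Itga6 (1.59), Itga9 (0.56), Itgb5 (0.52), Ptk2 (0.50) and Tln1 (0.43), with log2 fold changes in parentheses. The first 4 of these calls depended on single libraries, being lost for Itga6 without Matrigel replicates 2 or 3 or co-cultured HSC replicates 1 or 3 (adjusted p between 0.0610 and 0.105), for Itga9 without Matrigel replicates 1 or 2 or co-cultured HSC replicates 1 or 2 (adjusted p between 0.0696 and 0.0962), for Itgb5 without Matrigel replicates 1 or 2 or co-cultured HSC replicate 1 (adjusted p between 0.0557 and 0.135) and for Ptk2 without Matrigel replicates 2 or 3 (adjusted p between 0.0515 and 0.0672). For Tln1 the call was lost with library totals (adjusted p = 0.0823) and with only the libraries compared (adjusted p = 0.118). Library totals moved the median of all genes to -0.11, all genes from 2948 higher and 2340 lower to 2026 and 3128, and the members to 5 higher and 8 lower.

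The genes that fell included receptors and adaptors that had been high at day 0 or in Matrigel. Tns1 went from 473, 787 and 639 CPM to 107, 116 and 153 CPM (log2 fold change -2.29 ± 0.22, adjusted p = 4.35e-06), and Tln2 from 104, 163 and 141 CPM to 37.6, 36.0 and 26.2 CPM (log2 fold change -1.99 ± 0.18, adjusted p = 3.48e-06). Itga1 went from 316, 443 and 410.2 CPM to 139, 168 and 111 CPM (log2 fold change -1.44 ± 0.18, adjusted p = 5.15e-05), and Itgb3, encoding the beta chain of the vitronectin receptor, from 104, 141 and 145 CPM to 53.1, 73.2 and 45.6 CPM (log2 fold change -1.14 ± 0.17, adjusted p = 0.000209). In these 4 genes every co-culture library was below every mono-culture library. Itga8 had 49.6, 69.1 and 37.0 CPM in co-culture (log2 fold change -1.15 ± 0.23, adjusted p = 0.00195) and Tns3 107, 118 and 126 CPM (log2 fold change -0.71 ± 0.13, adjusted p = 0.000931), also without overlap. Itga4 had 0.896, 1.03 and 1.22 CPM in co-culture (log2 fold change -1.97 ± 0.22, adjusted p = 1.95e-05), so that its rise on plastic had no counterpart there. Fermt2 was called lower (log2 fold change -0.43 ± 0.15, adjusted p = 0.0441), but not without Matrigel replicates 2 or 3 or co-cultured HSC replicates 1 or 3 (adjusted p between 0.0813 and 0.217) or with the organoid share subtracted (adjusted p = 0.118). The calls of the 7 other lower genes held with the organoid share subtracted.

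Against plastic, co-cultured HSC had 10 genes higher and 17 lower (22.9% and 19.6% of all genes), with a median of -0.79 against 0.08. The lower genes included the ILK complex (Ilk -1.47, Parva -1.12, Lims1 -1.17 and Lims2 -4.16), Vcl (-1.31), Fermt2 (-2.05), Bcar1 (-2.47), Ptk2 (-1.54) and Itgb1 (-1.57). Itga4 was the most reduced (log2 fold change -5.97 ± 0.22, adjusted p = 3.27e-09). In co-culture, Itga5 thus stood near its plastic level while Itga4, Lims2 and the actin linkers did not. Itgb8 was higher than on plastic, with 10.1, 7.55 and 4.10 CPM (log2 fold change 3.66 ± 0.57, adjusted p = 0.000247), and Itga11, a receptor chain for fibrillar collagen, had 4.35, 6.78 and 5.38 CPM against 1.65, 2.40 and 2.10 CPM (log2 fold change 1.41 ± 0.45, adjusted p = 0.0227). The Itga11 call did not hold without plastic replicates 1 or 3 or co-cultured HSC replicate 2 (adjusted p between 0.0593 and 0.0841). Pxn was also called higher (log2 fold change 0.64 ± 0.20, adjusted p = 0.0204), but not without plastic replicates 1 or 2 or co-cultured HSC replicates 2 or 3 (adjusted p between 0.0854 and 0.107). The Pxn call was lost with the organoid share subtracted as well. Likewise Itgb5 was called higher (log2 fold change 0.48 ± 0.17, adjusted p = 0.0405), but not without plastic replicates 1 or 2 or 3 or co-cultured HSC replicates 1 or 2 (adjusted p between 0.0541 and 0.189). Itga7, encoding a laminin receptor chain of muscle, had 1.47 to 4.19 CPM over all 18 libraries and passed the threshold in no comparison. The remaining 6 higher genes are the epithelial-type genes described next. The call of Tln1 was lost with the organoid share subtracted (adjusted p = 0.109). Under library totals the median of all genes was 0.24, and all genes went from 3897 higher and 3336 lower to 4776 and 2545.

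Itga2, Itga3, Itga6, Itgb4, Itgb6 and Fermt1 have products typical of epithelia: alpha2 is a collagen receptor chain, alpha3 and alpha6 bind laminins, beta4 pairs with alpha6 in hemidesmosomes, beta6 forms an epithelial TGF-beta activator, and Fermt1 encodes kindlin-1. All 6 were called higher in ICO than in HSC alone in Matrigel, although the call of Itgb6 was lost without Matrigel replicate 2 (adjusted p = 0.0520). Itgb4 had 147, 124 and 118 CPM in ICO, 36.6, 24.7 and 4.65 CPM in HSC alone in Matrigel, 48.5, 27.2 and 58.4 CPM in co-cultured HSC and at most 1.91 CPM at day 0 or on plastic. Itga3 had 332, 242 and 270.1 CPM in ICO, 73.7, 51.4 and 18.3 CPM in HSC alone in Matrigel and 88.5, 47.0 and 102 CPM in co-cultured HSC. In HSC alone in Matrigel the order of the libraries followed the organoid share in all 6 genes, with replicate 1 the highest. In co-culture it did so in Itga2, Itga3, Itgb4 and Fermt1, with replicate 3 the highest, while replicate 1 was the highest in Itga6 and Itgb6. For Itgb4, the share times the ICO level gave 40.9, 17.4 and 3.98 CPM for the 3 Matrigel libraries, in the order of the measured values above. Against day 0, Itga2, Itga3, Itga6, Itgb4, Itgb6 and Fermt1 were called higher in HSC alone in Matrigel (log2 fold changes of 6.46, 2.39, 1.69, 4.19, 6.82 and 6.63). With the organoid share subtracted, the calls of Itga2, Itga3, Itga6, Itgb4 and Itgb6 were lost (adjusted p between 0.323 and 0.996). That of Fermt1 stayed, at 3.88, 2.51 and 0.616 CPM on the library sizes from before subtraction. Against plastic, Itga2, Itga6, Itgb4, Itgb6 and Fermt1 were called higher in HSC alone in Matrigel. After subtraction that of Fermt1 remained, those of Itga6, Itgb4 and Itgb6 were lost (adjusted p between 0.252 and 0.732), and Itga2 turned lower (-3.30, adjusted p = 0.0252). In co-culture against plastic, the calls of Itga2, Itga3, Itga6, Itgb4 and Itgb6 were lost after subtraction (adjusted p between 0.0559 and 0.642). Itga6 in co-cultured HSC replicate 1 stood apart, at 29.5 CPM against 11.2 CPM from the share.

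**Figure D3:**
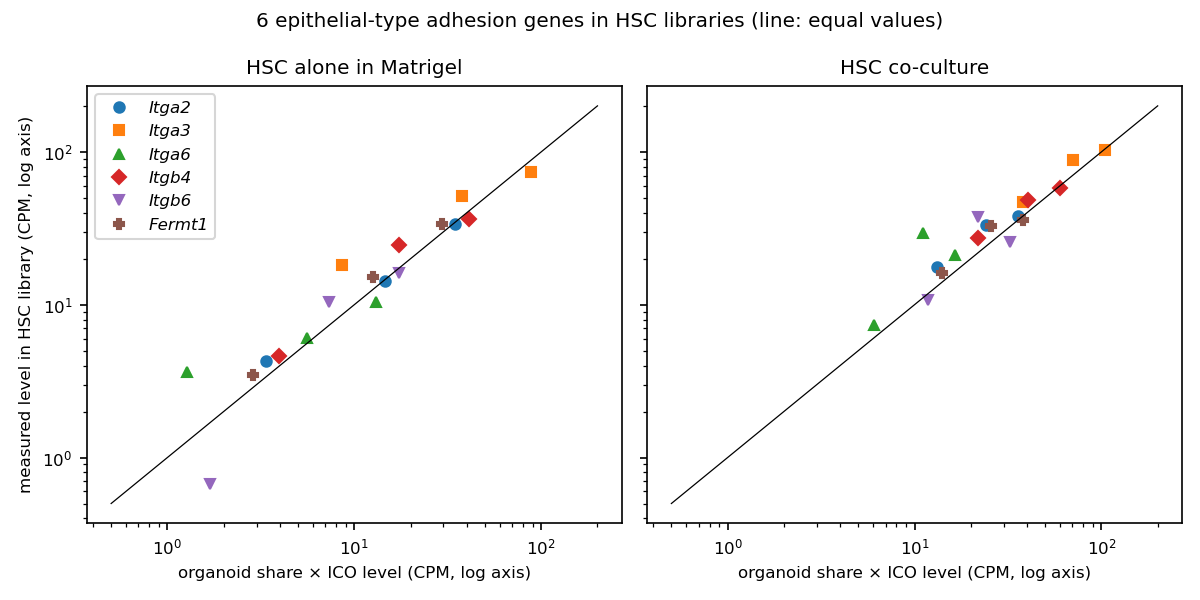
Measured levels (y axis, CPM, log axis) of 6 epithelial-type genes in the HSC libraries of each Matrigel culture against the organoid share times the ICO level (x axis, CPM, log axis), with a point per gene and library and a line of equal values. Most points lie near the line, such as Itgb4 in Matrigel replicate 1 with 36.6 CPM measured and 40.9 CPM from the share.

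HSC and ICO alone in Matrigel were compared to see which adhesion genes differed between these libraries. The HSC libraries also held macrophage transcripts, whose part was not tested. Of 10 macrophage markers tested, 9 were called higher in HSC and 1 lower. Of 32 genes, 18 were higher in HSC and 7 in ICO, against 30.9% and 25.9% of 16220 genes, with a median of 0.94 against 0.09. The HSC-high genes were led by Itga8, which had 0 counts in all 3 ICO libraries and 95.7, 138 and 123 CPM in HSC, at least 1538-fold higher against a floor of 3 counts over the ICO group. Itga9 (log2 fold change 9.69 ± 0.67, adjusted p = 4.83e-07), Itga1 (log2 fold change 5.62 ± 0.27, adjusted p = 1.19e-08), Itgb3 (log2 fold change 5.19 ± 0.38, adjusted p = 1.07e-06) and Tln2 (log2 fold change 4.84 ± 0.28, adjusted p = 4.89e-08) followed, none overlapping with ICO. Fermt2 had 35.8, 38.1 and 37.4 CPM in ICO (log2 fold change 3.03 ± 0.16, adjusted p = 1.25e-08), whereas Fermt1, the kindlin of epithelia, went the other way (log2 fold change -2.37 ± 0.62, adjusted p = 0.0102). Ptk2 was slightly lower in HSC (log2 fold change -0.50 ± 0.14, adjusted p = 0.00736). Itgb1, Itgav, Vcl and Bcar1 gave log2 fold changes between -0.10 and 0.04 with standard errors of 0.11 to 0.15, and none passed the threshold. With the organoid share subtracted from the HSC libraries, the counts were again 18 and 7, against 4767 and 4559 of all 16319 genes.

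In ICO, co-culture was compared with ICO alone in Matrigel. Lims2, Itgb5, Itgb6 and Tns1 were higher in co-culture without overlap. Of 28 genes tested, 5 were higher and 3 lower, against 8.59% and 7.98% of all 13717 genes tested, with a median of -0.03 against 0.00. Lims2 had 2.14, 1.87 and 3.86 CPM in ICO alone and 13.8, 14.2 and 9.99 CPM in co-culture (log2 fold change 2.26 ± 0.29, adjusted p = 3.07e-05). Itgb5, encoding the beta chain of a vitronectin receptor, had 13.1, 12.4 and 14.9 CPM and 25.3, 23.3 and 24.6 CPM (log2 fold change 0.84 ± 0.15, adjusted p = 0.000853). Itgb6 had 51.8, 55.2 and 57.6 CPM and 80.7, 77.3 and 70.3 CPM (log2 fold change 0.46 ± 0.10, adjusted p = 0.00360), and Tns1 89.3, 97.1 and 97.2 CPM and 158, 125 and 158 CPM (log2 fold change 0.62 ± 0.10, adjusted p = 0.000227). The remaining calls were small or fragile. Itga2 fell (log2 fold change -0.39 ± 0.10, adjusted p = 0.00917), which was lost without co-cultured ICO replicate 1 (adjusted p = 0.0508). Tln2 (log2 fold change -1.15 ± 0.34, adjusted p = 0.0256) was at 1.83, 2.01 and 2.95 CPM in co-culture, and its call was lost without mono-cultured ICO replicates 1 or 2 or co-cultured ICO replicates 1 or 2 (adjusted p between 0.0551 and 0.170). Parva (log2 fold change 0.27 ± 0.09, adjusted p = 0.0392) was called higher, but not without mono-cultured ICO replicates 1 or 2 or 3 or co-cultured ICO replicates 1 or 3 (adjusted p between 0.0653 and 0.148). Lims1 (log2 fold change -0.26 ± 0.09, adjusted p = 0.0449) was called lower, but not without mono-cultured ICO replicates 1 or 2 or 3 or co-cultured ICO replicates 1 or 2 or 3 (adjusted p between 0.0590 and 0.148). When all 18 libraries shared a fit, the calls of Itga2, Itgb6 and Tns1 also missed the threshold (adjusted p = 0.815, 0.819 and 0.0579). Transcripts of stellate matrix genes also rose in the co-cultured ICO libraries, with Col1a1 at 1.64, 0.701 and 2.10 CPM alone and 10.4, 11.5 and 23.0 CPM in co-culture. The part of HSC RNA in the ICO changes was not tested. Itga8, Itga9, Itga11 and Itgb8 had too few counts in ICO to be tested. With library totals as scaling, all genes went from 1178 higher and 1094 lower to 876 and 1293.

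Whether co-culture acted differently on HSC and ICO was tested as a difference of the log2 effects, HSC minus ICO. The test treated libraries as unpaired, although co-cultured HSC and ICO share label codes and may come from the same cultures. Of 32 genes, 2 had a more positive effect in HSC and 4 a more negative one, against 9.08% and 8.09% of all 16220 genes, with a median of 0.14 against 0.01. Itga5 rose in HSC and had 13.0, 8.80 and 13.2 CPM in ICO alone and 14.6, 9.96 and 11.8 CPM in co-cultured ICO, a difference of 3.70 ± 0.35 (adjusted p = 3.79e-05). Tns1 fell in HSC and rose in ICO, a difference of -3.02 ± 0.27 (adjusted p = 1.61e-05). Itgb1 (0.77 ± 0.19, adjusted p = 0.0150) was the other gene with a more positive effect in HSC, and Tns3 (-0.86 ± 0.17, adjusted p = 0.00514) another with a more negative one. Lims2 rose in both cell types, with log2 fold changes of 2.47 in HSC and 2.26 in ICO and a difference of 0.09 ± 0.81 (adjusted p = 0.964). Itga1 (-1.13 ± 0.33, adjusted p = 0.0339) and Itga8 (-6.83 ± 1.81, adjusted p = 0.0335) were also called, but Itga8 rests on 10, 0 and 11 counts in co-cultured ICO and none in ICO alone, so its fitted value depends on the prior count. Both calls were lost without single libraries: Itga1 without Matrigel replicates 2 or 3 or mono-cultured ICO replicates 1 or 2 or 3 or co-cultured HSC replicates 1 or 3 or co-cultured ICO replicate 3 (adjusted p between 0.0505 and 0.0917) and Itga8 without Matrigel replicate 2 or mono-cultured ICO replicates 1 or 2 or 3 or co-cultured HSC replicate 1 or co-cultured ICO replicates 1 or 3 (adjusted p between 0.0588 and 0.0942).

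**Figure D4:**
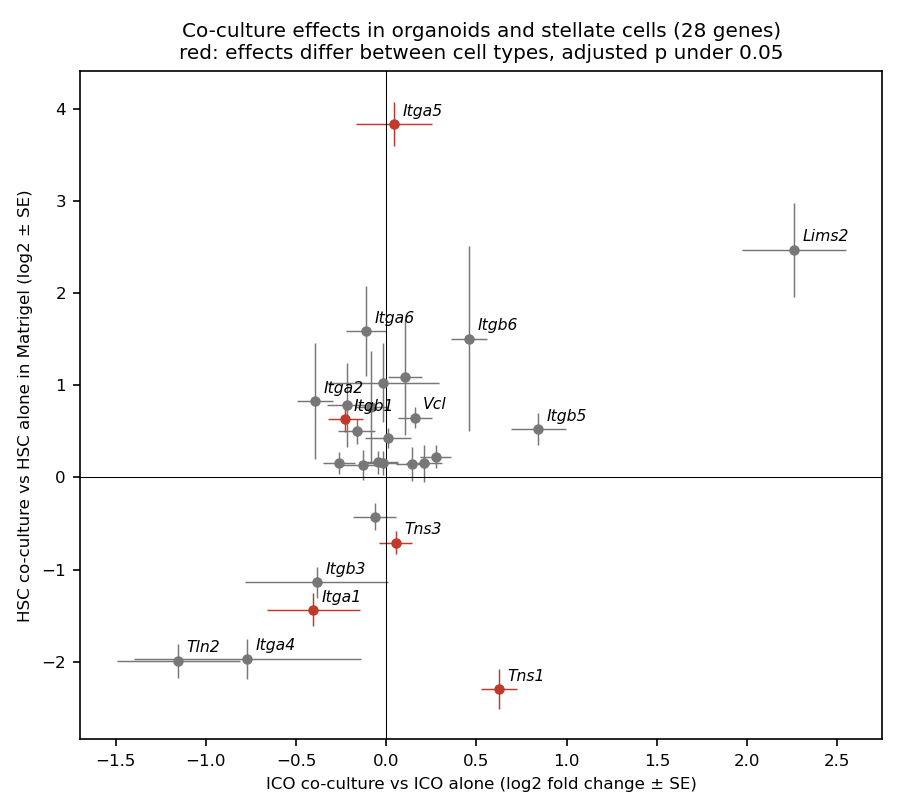
Co-culture effects (log2 fold change ± SE) on the 28 genes tested in ICO, with the effect in ICO on the x axis and in HSC on the y axis, and red for genes whose 2 effects differ at adjusted p under 0.05. Itga5 lies high on the HSC axis (3.83) and near 0 for ICO (0.04), and Tns1 lies in the quadrant of a fall in HSC (-2.29) and a rise in ICO (0.62).

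Other adhesion genes and integrin ligands were examined as context, in lists of 53 and 37 genes. On plastic against day 0, 17 of 50 tested adhesion genes were higher and 13 lower, against 27.5% and 30.5% of all genes, led by Tes (4.40) and Actn1, encoding alpha-actinin-1 (3.62), and by the platelet integrin chain gene Itga2b (-5.92) and Tns2 (-3.20). Itga2b moved with the platelet marker sum, which was 131.4 to 145.9 CPM at day 0 and at most 15.2 CPM on plastic, and which holds Itga2b as a member. In Matrigel against plastic, 10 were higher and 21 lower, against 29.9% and 25.2% of all genes, with Actn1 at 199.7 ± 46.7 CPM on plastic and 25.9 ± 0.927 CPM in Matrigel (log2 fold change -3.00 ± 0.24, adjusted p = 7.68e-07). In co-culture against HSC alone, 11 rose and 10 fell, against 17.3% and 13.8% of all genes. Enah, which promotes actin filament growth at adhesions, was among those that rose (log2 fold change 2.04 ± 0.27, adjusted p = 8.89e-05), and among those that fell were Tns2 (log2 fold change -1.96 ± 0.13, adjusted p = 2.38e-07) and Lpxn, encoding the paxillin relative leupaxin of blood cells (log2 fold change -3.85 ± 0.77, adjusted p = 0.00219). Lpxn moved with the macrophage marker sum given above, whose part was not tested.

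Among the ligands, 15 of 35 tested were higher and 6 lower in co-cultured HSC than in HSC alone in Matrigel, against 17.3% and 13.8% of all genes. Fn1, encoding fibronectin, the ligand of the alpha5 receptor, had 458, 319.8 and 176 CPM in HSC alone in Matrigel, 3503, 3522 and 2923 CPM in co-culture and 147, 109 and 84.8 CPM on plastic (log2 fold change 3.44 ± 0.30, adjusted p = 3.22e-06 for co-culture against Matrigel). Its co-culture libraries were above those of every other group, including ICO at 1576, 1436 and 1482 CPM alone and 2241, 1926 and 2055 CPM in co-culture. The Fn1 values of HSC alone in Matrigel were ordered as their organoid shares, and the share times the ICO level came to 472, 201 and 45.9 CPM there and to 597, 324 and 883 CPM in co-culture. With it subtracted, 0, 119 and 130.5 CPM of Fn1 remained in HSC alone in Matrigel and 2906, 3199 and 2039.9 CPM in co-culture (log2 fold change 5.43 ± 1.38, adjusted p = 0.0140). These CPM keep the library sizes from before subtraction, whereas the fit rescaled the subtracted counts. Fn1 and Itga5 were thus both high in co-cultured HSC, whereas on plastic Itga5 was high and Fn1 was not. Col1a1, a chain of type I collagen, had 133, 90.3 and 137 CPM in HSC alone in Matrigel and 2534, 4329.9 and 2635 CPM in co-culture (log2 fold change 4.76 ± 0.24, adjusted p = 3.49e-08), and Col3a1 rose as well (log2 fold change 4.10 ± 0.27, adjusted p = 2.36e-07). Collagen VI chains fell, with Col6a1 at -1.53 and Col6a2 at -1.43. On plastic, Thbs1, encoding the matrix protein thrombospondin-1, had 1279 ± 167 CPM against 83.4 ± 32.4 CPM in Matrigel (log2 fold change -4.00 ± 0.23, adjusted p = 6.58e-08).

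How reads were assigned limits some of these values, since the use of strand in counting is not stated. In GENCODE M21 (GRCm38), 76.7% of the exon bases of Ilk overlap Taf10 and 25.5% of those of Vcl overlap Ap3m1 on the opposite strand. Rrp8, also on the opposite strand, overlaps 12.9% of the exon bases of Ilk. Ilk had 1398 to 13980 counts per library, Taf10 136 to 724 and Rrp8 220 to 990. Vcl had 1192 to 8616 and Ap3m1 860 to 3783. Reads of these neighbours may be part of either level, which was not tested. Lims1 and Lims2, Tln1 and Tln2, and Fermt1 and Fermt2 are paralogs, and reads that fit both members of a pair may have been divided between them.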

How the data were processed

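The 32 genes were taken by symbol, and they and the context lists were chosen with earlier results of these data known. The authors deposited 1 table of estimated counts per gene and library, whole or not. Per the submitters' processing notes kallisto 0.46.1, DESeq2 1.36.0 and GRCm39 are named, with no role given. The annotation was not stated. In R 4.3.3, rounded counts went into the robust quasi-likelihood test of edgeR 4.0.16, with TMM scaling, filterByExpr, Benjamini-Hochberg adjustment over all genes and a threshold of 0.05. The 5 HSC comparisons shared a fit of 12 libraries, so comparisons that use the same group are not independent. The ICO comparison used 6 libraries, and comparisons across cell types 12. The standard error (SE) is the absolute log2 fold change divided by the square root of F. CPM were computed with TMM factors over 18 libraries, and levels per kb with the longest protein-coding transcript of GENCODE M21. The floor of 3 counts covers counting error only, whereas the SE includes the spread between libraries. Share markers had at least 100 CPM in ICO and under 5 CPM at day 0 and on plastic. The scripts were tested on simulated data. Per-library values are given for genes of at least 10 CPM in a group that were called in at least 1 comparison, and for a few genes of lower level that a result turns on. From each context list at most 3 called genes per direction and comparison, by size of change, may be named, and Fn1 was added after its values were seen. Alternatives were RLE and library-total scaling, no filter or one of 10 CPM, DESeq2 1.42.0, other sets of libraries in the fit, a replicate block, the organoid share subtracted or as covariate, and each library left out.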

Additional observations from a re-analysis of the deposited data

Results flagged for a closer look

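By the test of the difference itself, the co-culture effect differed between HSC and ICO for 6 of 32 genes. In the same test 2785 of all 16220 genes were called, a similar share. The count alone thus does not set the 32 genes apart. Values are given as the log2 effect in HSC minus that in ICO, with the edgeR adjusted p. Itga5 had 3.70 ± 0.35 (adjusted p = 3.79e-05), with 3 of 3 co-cultured HSC libraries above all mono-cultured ones and overlapping ICO groups, and a range over the alternatives of 3.45 to 3.99, adjusted p 4.21e-19 to 0.000284. Tns1 had -3.02 ± 0.27 (adjusted p = 1.61e-05), lower in 3 of 3 co-cultured HSC libraries and higher in 3 of 3 co-cultured ICO libraries, with a range of -3.33 to -2.80, adjusted p 1.03e-21 to 0.000138. Tns3 had -0.86 ± 0.17 (adjusted p = 0.00514) and Itgb1 0.77 ± 0.19 (adjusted p = 0.0150). Itga1 had -1.13 ± 0.33 (adjusted p = 0.0339) and Itga8 -6.83 ± 1.81 (adjusted p = 0.0335), and both missed the threshold under several alternatives, with adjusted p up to 0.0917 and 0.0942.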

How the results depend on the processing

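Of 4222 values of single genes under the alternatives, 3964 kept their side of the threshold, 159 missed it and 94 newly passed it. A further 5 changed sign where the main or the alternative value was called. Changes of sign between values that both missed the threshold are among the 3964. An example is Tln1 for plastic against day 0, with log2 fold changes of -0.15 to 0.19 over the alternatives. The 5 sign changes that involve a call came with the organoid share subtracted. They were Matrigel against day 0 for Itga3 (log2 -0.0177, adjusted p = 0.996) and Itga6 (-0.92, 0.532), Matrigel against plastic for Itga2 (-3.30, 0.0252) and Itga6 (-0.67, 0.616), and co-culture against plastic for Itga3 (-0.89, 0.642). Counts of genes that moved by over 1.5 times were these. With the share subtracted, 4 genes rose from day 0 to Matrigel, against 2278 of all 16787 genes. In that setting 6 had a more positive co-culture effect in HSC, against 1960 of all 16319 genes. For co-cultured HSC against HSC alone, 5 were higher with library totals, against 2026 of all 17006 genes. With only the libraries compared 3 were, against 1605 of 15403. With each library left out 5 to 9 were (5 without Matrigel replicate 2). For ICO, 2 were higher and 1 lower with all 18 libraries, against 313 and 239 of all 17437 genes. Leaving out each library gave 0 to 2 lower (0 without co-culture replicate 1). For the difference of effects, 5 were more positive with all 18 libraries, against 1993 of all 17437 genes. Here leaving out each library gave 2 to 6 more positive (6 without HSC Matrigel replicate 1) and 2 to 6 more negative. Counts of all genes were not taken with libraries left out. The labels of co-cultured HSC and co-cultured ICO share the letter D and the replicate numbers, whereas each other group has its own letter. Whether same-numbered libraries came from 1 culture is not stated, and the main fits treated all libraries as unpaired. Correlations of same-numbered deviations in co-cultured HSC and HSC alone were 0.0352, -0.161 and -0.388, and in co-cultured HSC and ICO 0.0585, 0.0607 and -0.0433. So few pairs cannot show whether libraries were paired. The replicate block left 1 gene lower in ICO and 2 with a more negative effect in HSC, against 999 of 13717 and 1095 of 16220 of all genes. It moved no other count by over 1.5 times. Apart from organoid RNA, the cause of these changes was not tested. Leaving out the libraries of highest organoid share, HSC Matrigel replicate 1 and HSC co-culture replicate 3, was chosen after seeing the data. It reversed no call, lost 4 and gained 6, and gave 10 genes higher in co-cultured HSC than in HSC alone. Depth limits Itga7, Itga11 and Itgb8, and in ICO Itga4, Itga8 and Itga9.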
